A study of Mus musculus with 33 samples.

Results

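The circadian clock genes described here are 10 transcripts of the molecular clock in mouse liver: Arntl (also called Bmal1), Clock, Npas2, Per1, Per2, Per3, Cry1, Nr1d1, Nr1d2 and Dbp. They were matched by Ensembl identifier in the table of raw counts, which held all 10 of them among 25988 genes, and by gene name in the deposited normalized table, where 9 of them were matched. Npas2 was the member without a row there, and it also had too few reads to be tested, so that 9 of the 10 members were among the 10179 genes tested. Hepatic RNA of male C57BL/6J mice was measured by 3' QuantSeq, which reads the 3' end of polyadenylated transcripts, in 33 libraries of 4 groups. shChREBP/L-G6pc-/- (9 libraries) and shSCR/L-G6pc-/- (8 libraries) livers lacked G6pc, the catalytic subunit of glucose-6-phosphatase, in hepatocytes, a model of glycogen storage disease type Ia. shChREBP/L-G6pc+/+ and shSCR/L-G6pc+/+ (8 libraries each) were the corresponding controls. The viral short hairpin RNA shChREBP targets Mlxipl, the gene of the glucose-sensing transcription factor ChREBP, and shSCR is a scrambled hairpin.

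Mice of all 4 groups carried floxed G6pc alleles, were infected with an adeno-associated virus at 13 to 18 weeks of age and then received tamoxifen on 5 days. L-G6pc-/- mice also carried a tamoxifen-inducible Cre recombinase driven from the albumin locus, so that the deletion is expected in hepatocytes and other liver cells keep G6pc. According to the methods of the study, livers were collected at 8 AM from nonfasted mice, 10 days after tamoxifen ended, and housing was with 12 hours of light and 12 hours of darkness. The hour at which the lights came on is not given in the sources used here. Since a single time of day was sampled, a change in the size of a daily rhythm and a shift in its timing cannot be told apart here. The labels do not say that every library is a different mouse, so n counts libraries and the p-values measure the spread between them.

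In the mammalian clock, ARNTL pairs with CLOCK or NPAS2 and switches on genes that carry E-box motifs, among them the Per and Cry genes. The PER and CRY proteins return to the nucleus and repress this pair, while the nuclear receptors REV-ERB alpha and REV-ERB beta (encoded by Nr1d1 and Nr1d2) repress Arntl through ROR elements. Dbp is an output of the same loop, and its protein binds D-box motifs. In liver, these genes cycle over the day and set the timing of many metabolic transcripts.

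These 3 kinds of motif were searched in promoter windows of RefSeq (GRCm38.p6), each from 250 bases before to 50 bases after an annotated start. The letters were CACGTG for the E-box, TTATGTAA or TTACGTAA for the D-box and TAGGTCA or TGGGTCA for the ROR element, on both strands. The table held 13 windows for 9 of the 10 members. At least 1 match was found in windows of 4 members, Per3, Cry1, Per1 and Arntl, and the windows with a match are shown. No match was found in the windows of Clock, Npas2, Nr1d1, Nr1d2 and Dbp or in the other window of Per1 and of Arntl. Per2 had no window. Capitals mark the match, and each sequence runs 5′ to 3′ on the strand of the gene. Per3 lies at chr4:151044616-151044915 (minus strand) with D-boxes that begin 205 and 158 bases upstream of the start. Cry1 lies at chr10:85185005-85185304 (minus strand) with an E-box 60 bases upstream, Per1 at chr11:69098699-69098998 (plus strand) with an E-box 166 bases upstream, and Arntl at chr7:113207261-113207560 (plus strand) with a ROR element at base 31 downstream of the start.
Per3: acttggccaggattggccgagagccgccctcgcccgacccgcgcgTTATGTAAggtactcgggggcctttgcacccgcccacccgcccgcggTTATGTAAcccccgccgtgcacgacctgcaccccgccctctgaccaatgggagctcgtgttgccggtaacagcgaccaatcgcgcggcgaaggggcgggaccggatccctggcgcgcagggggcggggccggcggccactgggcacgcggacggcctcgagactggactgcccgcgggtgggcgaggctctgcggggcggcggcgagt
Cry1: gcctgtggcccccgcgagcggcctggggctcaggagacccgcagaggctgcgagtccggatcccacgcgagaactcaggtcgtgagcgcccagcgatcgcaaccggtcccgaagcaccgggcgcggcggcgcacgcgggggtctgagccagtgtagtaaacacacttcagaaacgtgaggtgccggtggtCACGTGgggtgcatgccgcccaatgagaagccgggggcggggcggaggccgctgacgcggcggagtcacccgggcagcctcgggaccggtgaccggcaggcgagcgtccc
Per1: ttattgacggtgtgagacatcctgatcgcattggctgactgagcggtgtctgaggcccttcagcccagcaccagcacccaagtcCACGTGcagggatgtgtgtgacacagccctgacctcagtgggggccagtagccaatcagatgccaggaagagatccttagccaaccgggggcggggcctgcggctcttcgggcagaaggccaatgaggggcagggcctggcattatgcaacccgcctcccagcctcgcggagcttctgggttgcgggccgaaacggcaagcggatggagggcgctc
Arntl: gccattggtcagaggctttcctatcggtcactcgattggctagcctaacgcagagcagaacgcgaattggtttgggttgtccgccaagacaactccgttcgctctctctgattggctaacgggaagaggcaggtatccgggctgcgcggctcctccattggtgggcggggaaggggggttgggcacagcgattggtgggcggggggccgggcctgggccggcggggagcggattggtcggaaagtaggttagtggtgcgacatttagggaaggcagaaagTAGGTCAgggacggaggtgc
Among all 32851 windows of the table, 1.06% held a D-box, 7.15% an E-box and 6.45% a ROR element by the same search. A match describes the letters only, and whether a factor binds there was not measured.

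Total counts per library ran between 1497843 and 3546852. Mlxipl was lower with shChREBP in both genotypes (386 ± 112 against 574 ± 45.4 CPM in L-G6pc-/- and 366 ± 49.9 against 535 ± 57.5 CPM in L-G6pc+/+ livers; SD, n = 9, 8, 8 and 8). Levels are given in CPM, counts relative to the library total after TMM scaling. Pklr, a target of ChREBP, averaged 314 ± 68.3 CPM in shSCR/L-G6pc-/- and 123 ± 36.7 CPM in shSCR/L-G6pc+/+ livers (SD, n = 8 each). G6pc itself was not lower in shSCR/L-G6pc-/- (346 ± 192 CPM) than in shSCR/L-G6pc+/+ livers (236 ± 86.4 CPM; SD, n = 8 each), but 3' reads may lie outside the floxed part, so these reads do not check the deletion. Over all genes, 4 libraries of the shChREBP/L-G6pc-/- group (s33, s32, s30 and s29) stood apart on the first principal component, between 26.8 and 35.6, with the other 5 between -1.47 and 7.7. Mlxipl was at 359, 216, 263 and 270 CPM in these 4 libraries, and between 441 and 500 CPM in the other 5. Results without the 4 libraries therefore also leave out the lowest Mlxipl levels of that group. The summed level of 6 hepatocyte markers ran between 9350 and 17600 CPM in shChREBP/L-G6pc-/-, 14200 and 19700 CPM in shSCR/L-G6pc-/-, 17900 and 28800 CPM in shChREBP/L-G6pc+/+ and 22700 and 26200 CPM in shSCR/L-G6pc+/+ livers. In bulk RNA, fewer cells of a type and less RNA per cell cannot be told apart.

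Clock was the 1 member called. Its level was lower in livers without G6pc, with shSCR or with shChREBP, than in shSCR/L-G6pc+/+ livers. Both calls were lost without the filter on low counts (edgeR adjusted p = 0.059 and 0.0593) and without single libraries, among them s1 and s5. The other 8 members tested passed no test in any of the 5 pairwise comparisons. With edgeR's quasi-likelihood test and an adjusted p under 0.05, 1 of 9 members was called between shSCR/L-G6pc-/- and shSCR/L-G6pc+/+ livers, where 3.23% of all genes were called (2.2% higher, 1.03% lower). Likewise 1 of 9 was called between shChREBP/L-G6pc-/- and shSCR/L-G6pc+/+ livers, where 13.2% of all genes were called (6.87% higher, 6.37% lower), so that the share of members was not above that of all genes. No member was called for shChREBP in L-G6pc-/- (7.56% of all genes called, 3.33% higher and 4.23% lower) or in L-G6pc+/+ livers (5.39%, 2.16% higher and 3.23% lower). None was called between the genotypes under shChREBP (11%, 6.14% higher and 4.9% lower) or for the difference of the shChREBP effects (0.0786%, 0.0589% positive and 0.0196% negative). At an unadjusted p under 0.05 these 4 comparisons held 1, 0, 1 and 0 members. The median log2 fold change of the members was -0.04, -0.02, -0.1, -0.11, -0.23 and -0.12 in the same order, and that of all genes lay between -0.014 and 0.026.

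**Figure D1:**
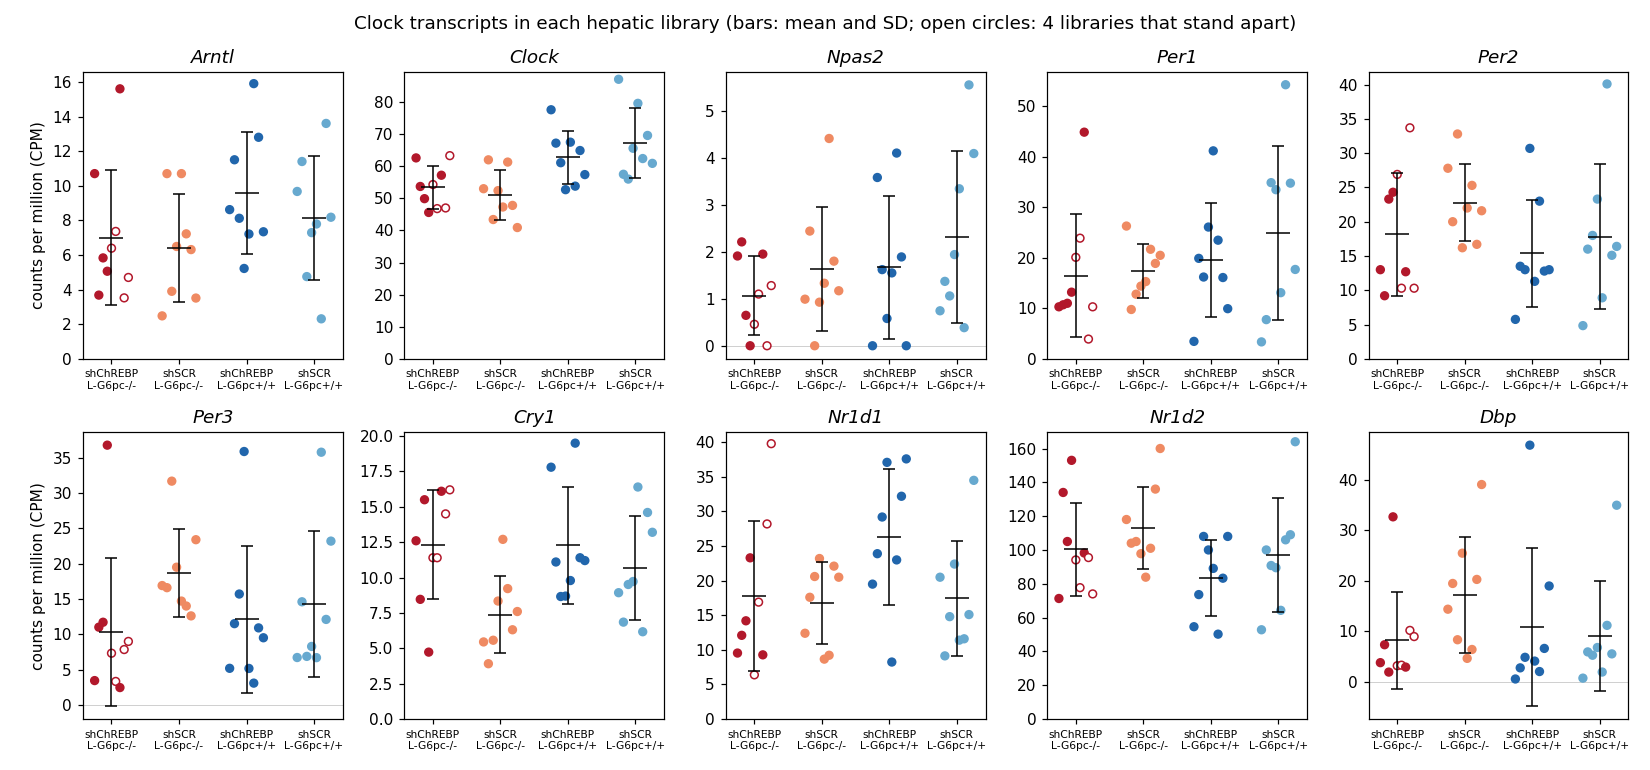
The 10 clock transcripts in CPM in each of 33 libraries, 1 panel per gene and 1 column per group, with bars for the mean and SD and open circles for the 4 shChREBP/L-G6pc-/- libraries that stand apart. Clock lies lower in both L-G6pc-/- groups than in the L-G6pc+/+ groups with overlap, while Dbp, Per1 and Per3 show single libraries far above the rest of their group.

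Among the activators, Clock encodes a basic helix-loop-helix partner of ARNTL and lies on chromosome 5 of GRCm38 from 76209868 to 76304792. Its lowest, median and highest values were 45.6, 53.7 and 63.3 CPM in shChREBP/L-G6pc-/-, 40.9, 50.1 and 62.0 CPM in shSCR/L-G6pc-/-, 52.7, 63.0 and 77.6 CPM in shChREBP/L-G6pc+/+ and 56.0, 64.0 and 87.1 CPM in shSCR/L-G6pc+/+ livers. All 4 groups overlapped, but the lowest libraries were those of the L-G6pc-/- groups and the highest those of the L-G6pc+/+ groups. Clock averaged 51.0 ± 7.73 CPM in shSCR/L-G6pc-/- and 67.3 ± 10.9 CPM in shSCR/L-G6pc+/+ livers (SD, n = 8 each), a log2 fold change of -0.40 (SE 0.11, edgeR adjusted p = 0.0264). In shChREBP/L-G6pc-/- livers it averaged 53.4 ± 6.67 CPM (SD, n = 9), which was -0.34 from shSCR/L-G6pc+/+ on the log2 scale (SE 0.10, edgeR adjusted p = 0.022).

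Neighbouring groups in the order of the means did not separate for Clock. The log2 fold change was 0.06 (95% interval -0.15 to 0.27) for shChREBP in L-G6pc-/-, -0.23 (-0.44 to -0.02, edgeR adjusted p = 0.141) between the genotypes under shChREBP, and -0.11 (-0.32 to 0.11) for shChREBP in L-G6pc+/+ livers. The difference of the shChREBP effects between the genotypes was 0.16 (95% interval -0.14 to 0.47, edgeR adjusted p = 0.707). The fall in shSCR/L-G6pc-/- missed the threshold without any 1 of 5 libraries, with edgeR adjusted p = 0.0819 without s1, 0.0792 without s5, 0.0617 without s19, 0.0529 without s21 and 0.0659 without s24 (log2 fold changes between -0.38 and -0.34). Against shSCR/L-G6pc+/+ livers, that in shChREBP/L-G6pc-/- missed it without s1 (edgeR adjusted p = 0.071), without s5 (0.0582) and without the 4 libraries that stand apart (-0.32, 0.157). Of the hepatocyte markers, 1 of 6 was lower and none higher in shSCR/L-G6pc-/- than in shSCR/L-G6pc+/+ livers, and 4 of 6 were lower in shChREBP/L-G6pc-/- than in shSCR/L-G6pc+/+ livers. Over all genes 3.23% and 13.2% were called in these comparisons. Of 10 macrophage markers, none was called in the first of them and 3 rose in the second. Their sum ran between 1440 and 2300 CPM in shChREBP/L-G6pc-/-, 911 and 2210 CPM in shSCR/L-G6pc-/- and 955 and 1670 CPM in shSCR/L-G6pc+/+ livers. No marker of either list was at 0 in a whole group, and their part in the level of Clock was not tested.

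Arntl, the core activator, lies on chromosome 7 from 113207465 to 113314126. Its values ran from 3.52 to 15.6 CPM (median 5.83) in shChREBP/L-G6pc-/-, 2.48 to 10.7 CPM (median 6.4) in shSCR/L-G6pc-/-, 5.22 to 15.9 CPM (median 8.37) in shChREBP/L-G6pc+/+ and 2.31 to 13.6 CPM (median 7.98) in shSCR/L-G6pc+/+ livers. The ranges overlapped almost entirely. The lowest of its edgeR adjusted p-values was 0.328, between shChREBP/L-G6pc-/- and shChREBP/L-G6pc+/+ livers (log2 fold change -0.48, 95% interval -1.08 to 0.13). Npas2, the alternative partner of ARNTL, was near the limit of detection, with 0 to 6 reads in shChREBP/L-G6pc-/-, 0 to 11 in shSCR/L-G6pc-/-, 0 to 9 in shChREBP/L-G6pc+/+ and 1 to 12 in shSCR/L-G6pc+/+ libraries. No read of Npas2 was counted in 2, 1, 2 and 0 libraries of these groups, where a count of 0 allows up to 3 reads, or between 1.01 and 1.72 CPM by library, counting error only. Its levels were therefore not comparable between groups at this depth.

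Among the repressors, Cry1 came nearest to a change with shChREBP. It lies on chromosome 10 from 85131700 to 85185064. Its values ran from 4.73 to 16.2 CPM (median 12.6) in shChREBP/L-G6pc-/-, 3.91 to 12.7 CPM (median 6.95) in shSCR/L-G6pc-/-, 8.66 to 19.5 CPM (median 11.2) in shChREBP/L-G6pc+/+ and 6.17 to 16.4 CPM (median 9.61) in shSCR/L-G6pc+/+ livers. Most shSCR/L-G6pc-/- libraries lay at the low end of the range of the other groups. Cry1 averaged 12.3 ± 3.86 CPM in shChREBP/L-G6pc-/- and 7.38 ± 2.74 CPM in shSCR/L-G6pc-/- livers (SD, n = 9 and 8), a log2 fold change of 0.73 (SE 0.24, edgeR adjusted p = 0.0557) that missed the threshold. It passed with DESeq2 (0.73, adjusted p = 0.039) and, without scaling beyond library size, with edgeR (0.83, adjusted p = 0.0215). It also passed with edgeR without s6 (adjusted p = 0.0491), s14 (0.0497), s21 (0.0288), s26 (0.0413) or s28 (0.0149). Without the 4 libraries that stand apart it was 0.61 (edgeR adjusted p = 0.398). The log2 fold change of Cry1 between shSCR/L-G6pc-/- and shSCR/L-G6pc+/+ livers was -0.55 (SE 0.25, edgeR adjusted p = 0.282), and between the genotypes under shChREBP it was -0.01 (95% interval -0.46 to 0.45). The shChREBP effects on Cry1 in the genotypes differed by 0.54 (95% interval -0.14 to 1.23, edgeR adjusted p = 0.542).

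The Period genes, which encode the partners of CRY in the repressor complex, varied widely within groups. Per3 lies on chromosome 4 from 151003652 to 151044665. It ran from 2.44 to 36.8 CPM (median 7.83) in shChREBP/L-G6pc-/-, 12.6 to 31.7 CPM (median 16.7) in shSCR/L-G6pc-/-, 3.07 to 35.9 CPM (median 10.2) in shChREBP/L-G6pc+/+ and 6.68 to 35.8 CPM (median 10.2) in shSCR/L-G6pc+/+ livers. Of the shChREBP/L-G6pc-/- libraries, 8 lay below every shSCR/L-G6pc-/- library and s28 lay above them all. The log2 fold change for shChREBP in L-G6pc-/- was -0.81 (SE 0.42, edgeR adjusted p = 0.251), without s28 it was -1.43 (edgeR adjusted p = 0.0184) and without the 4 libraries that stand apart -0.44 (edgeR adjusted p = 0.806). Per1 ran from 3.91 to 44.9 CPM in shChREBP/L-G6pc-/-, 9.77 to 26.3 CPM in shSCR/L-G6pc-/-, 3.45 to 41.2 CPM in shChREBP/L-G6pc+/+ and 3.35 to 54.3 CPM in shSCR/L-G6pc+/+ livers. All groups overlapped. Per2 ran from 9.2 to 33.7 CPM in shChREBP/L-G6pc-/-, 16.2 to 32.8 CPM in shSCR/L-G6pc-/-, 5.75 to 30.7 CPM in shChREBP/L-G6pc+/+ and 4.84 to 40.1 CPM in shSCR/L-G6pc+/+ livers. Neither Per1 nor Per2 came near the threshold in any comparison, with edgeR adjusted p-values of 0.358 and above. The intervals were wide: for shChREBP in L-G6pc-/- the log2 fold change of Per1 was -0.10 (95% interval -0.92 to 0.72) and that of Per2 was -0.33 (-0.93 to 0.27).

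The nuclear receptor genes Nr1d1 and Nr1d2, repressors of Arntl, passed no test either in the model of groups alone. Nr1d1 lies on chromosome 11 from 98767932 to 98775333. Its values ran from 6.39 to 39.8 CPM (median 14.2) in shChREBP/L-G6pc-/-, 8.66 to 23.2 CPM (median 19) in shSCR/L-G6pc-/-, 8.24 to 37.6 CPM (median 26.5) in shChREBP/L-G6pc+/+ and 9.13 to 34.5 CPM (median 15) in shSCR/L-G6pc+/+ livers. Apart from 1 low library, shChREBP/L-G6pc+/+ livers lay between 19.5 and 37.6 CPM, and their median was the highest, but the groups overlapped. The log2 fold change was 0.61 (SE 0.30, edgeR adjusted p = 0.236) for shChREBP in L-G6pc+/+ and -0.56 (SE 0.29, edgeR adjusted p = 0.226) between the genotypes under shChREBP. With a term for the sets of neighbouring columns described further on, and without s33 (39.8 CPM), the comparison of genotypes under shChREBP gave -0.82 (edgeR adjusted p = 0.00346). Nr1d2, on chromosome 14 from 18204054 to 18239127, ran from 71.3 to 153 CPM in shChREBP/L-G6pc-/-, 83.9 to 160 CPM in shSCR/L-G6pc-/-, 50.2 to 108 CPM in shChREBP/L-G6pc+/+ and 52.8 to 164 CPM in shSCR/L-G6pc+/+ livers. Its lowest edgeR adjusted p was 0.375 (0.27, between the genotypes under shChREBP). The exons of Nr1d1 share 263 bases with those of Thra on the opposite strand, and since the strand setting of the counting is not given in the sources used here, reads from this stretch may be lost or assigned to either gene.

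Dbp, the output of the loop that encodes a D-box activator, spread most. It lies on chromosome 7 from 45705088 to 45710203. It ran from 1.94 to 32.7 CPM (median 3.81) in shChREBP/L-G6pc-/-, 4.66 to 39.1 CPM (median 17) in shSCR/L-G6pc-/-, 0.575 to 46.9 CPM (median 4.5) in shChREBP/L-G6pc+/+ and 0.744 to 35.0 CPM (median 5.74) in shSCR/L-G6pc+/+ livers. The lowest and the highest library of a group differed 16.9-fold, 8.4-fold, 81.6-fold and 47.0-fold in this order, down to 1 or 2 reads in the lowest L-G6pc+/+ libraries. The median of shSCR/L-G6pc-/- livers was the highest, yet its log2 fold change against shSCR/L-G6pc+/+ was 0.96 with an SE of 0.61 (95% interval -0.27 to 2.19, edgeR adjusted p = 0.501). For shChREBP in L-G6pc-/- the log2 fold change of Dbp was -0.98 (95% interval -2.17 to 0.20, edgeR adjusted p = 0.325). The exons of Dbp share 539 bases with Sphk2 on the opposite strand, with the same limit on the counting as for Nr1d1.

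**Figure D2:**
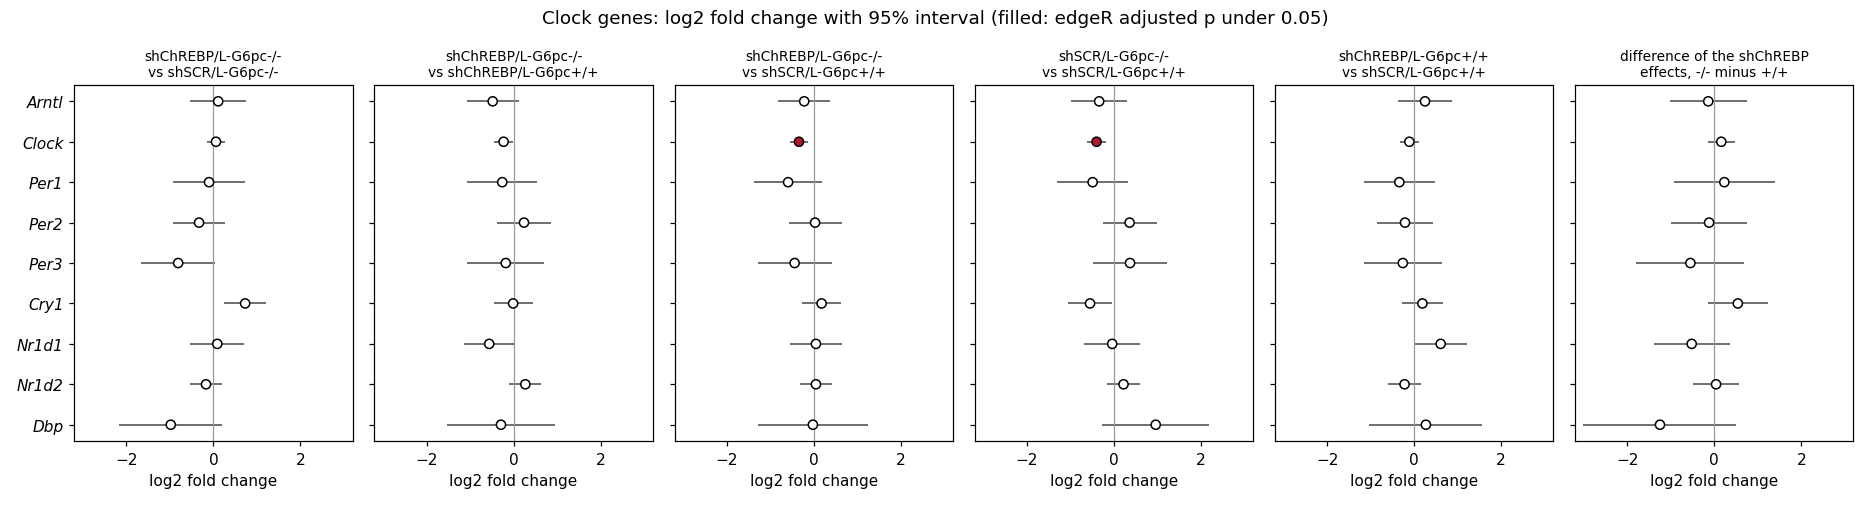
Log2 fold changes of the 9 tested clock genes in 5 comparisons and of the difference between the shChREBP effects, with 95% intervals; filled points had an edgeR adjusted p under 0.05. The filled points are Clock at -0.34 in shChREBP/L-G6pc-/- and -0.40 in shSCR/L-G6pc-/- against shSCR/L-G6pc+/+ livers, and the intervals of Dbp are the widest.

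The spread within groups was itself large for most members. edgeR's biological coefficient of variation, the replicate spread beyond counting error as a percentage of the level, was 84.4% for Dbp, 57.9% for Per3, 54.8% for Per1, 40.2% for Per2, 40.1% for Nr1d1 and 36.3% for Arntl. Over all 10179 genes tested its median was 18.2%. Cry1 (26.7%) and Nr1d2 (25.4%) lay above this median too, and Clock (13.2%) below it. Among genes within 0.5 log2 CPM of its own level, 99.8% varied less than Dbp, 99.1% less than Per3 and 23.6% less than Clock.

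Within groups, some pairs of members varied together and others against each other. With each group centred on its mean log2 CPM, 2 of 9 relations with Arntl passed a permutation test of Pearson's r within groups after Benjamini-Hochberg adjustment over the 9. Arntl and Npas2 rose and fell together (r = 0.56, p = 0.00097, adjusted p = 0.00873; rho = 0.56, p = 0.00159) over 33 libraries, although Npas2 rests on at most 12 reads a library. Arntl and Per3 ran against each other (r = -0.52, p = 0.00211, adjusted p = 0.00949; rho = -0.47, p = 0.00859). Without the 2 libraries farthest from the median of Arntl (s6 and s31) these r were 0.49 (permutation p = 0.00725) and -0.35 (permutation p = 0.0455). With Npas2, r was 0.48 in shChREBP/L-G6pc-/-, 0.52 in shSCR/L-G6pc-/-, 0.68 in shChREBP/L-G6pc+/+ and 0.63 in shSCR/L-G6pc+/+ livers, and with Per3 it was -0.67, -0.5, -0.6 and -0.41 in these groups. Without s6 alone, Arntl and Per3 no longer passed (r = -0.44, adjusted permutation p = 0.0634).

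**Figure D3:**
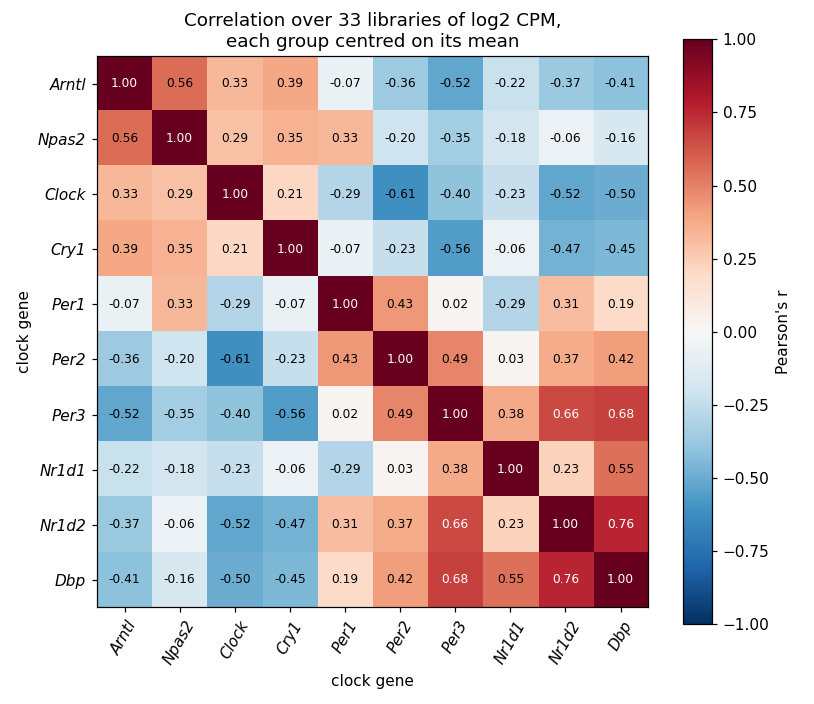
Pearson's r between all pairs of the 10 clock genes over 33 libraries, from log2 CPM centred within each group, on a colour scale between -1 and 1. Dbp, Nr1d2 and Per3 form a block of positive values between 0.66 and 0.76, and their values with Arntl, Clock and Cry1 lie between -0.56 and -0.37.

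The other 36 pairs were computed after the values had been seen, and 11 passed after adjustment over the 36, of which 5 were positive and 6 negative. The closest relation was that of Dbp and Nr1d2 (r = 0.76, p = 1e-05, the smallest the 100000 permutations can give, adjusted p = 0.00036; rho = 0.7, p = 1e-05). Without s8 and s1, the 2 libraries farthest from the median of Nr1d2, it was 0.68 (permutation p = 0.00011). In the single groups, shChREBP/L-G6pc-/- first and shSCR/L-G6pc+/+ last, it was 0.53, 0.73, 0.75 and 0.97. Per3 followed Dbp (r = 0.68, p = 8e-05, adjusted p = 0.0012; rho = 0.58, p = 0.00101) and Nr1d2 (r = 0.66, p = 1e-04, adjusted p = 0.0012; rho = 0.64, p = 0.00032). Without s28 and s12, the 2 libraries farthest from the median of Per3, these r were 0.5 (permutation p = 0.0077) and 0.6 (permutation p = 0.00124). Both relations of Per3 were weak in shSCR/L-G6pc-/- livers (r = 0.18 and 0.14) and between 0.7 and 0.76 in the other groups, a difference that was not tested.

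Clock ran against Per2 (r = -0.61, p = 0.00031, adjusted p = 0.00279; rho = -0.59, p = 0.00053), Nr1d2 (r = -0.52, p = 0.00308, adjusted p = 0.0158; rho = -0.48, p = 0.00706) and Dbp (r = -0.5, p = 0.00429, adjusted p = 0.0193; rho = -0.43, p = 0.02). Without s1 and s9 they were -0.46, -0.37 and -0.35 (permutation p = 0.0111, 0.0466 and 0.0548), each weaker, and the last then missed 0.05. Cry1 ran against Per3 (r = -0.56, p = 0.00149, adjusted p = 0.0101; rho = -0.43, p = 0.0167), Nr1d2 (r = -0.47, p = 0.00751, adjusted p = 0.03; rho = -0.47, p = 0.00814) and Dbp (r = -0.45, p = 0.00973, adjusted p = 0.0318; rho = -0.44, p = 0.0153). The relations of Cry1 with Nr1d2 and Dbp missed 0.05 without s28 and s21, with r of -0.33 and -0.28 (permutation p = 0.107 and 0.182). In the single groups, shChREBP/L-G6pc-/- first and shSCR/L-G6pc+/+ last, r with Nr1d2 was -0.73, -0.34, -0.92 and 0.01. With Dbp it was -0.7, -0.42, -0.66 and -0.05 in these groups. Per2 and Per3 rose together (r = 0.49, p = 0.00948, adjusted p = 0.0318; rho = 0.4, p = 0.0384), and missed 0.05 without s1 and s6 (r = 0.4, permutation p = 0.0638). Depth and scaling are shared by all values of a library.

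**Figure D4:**
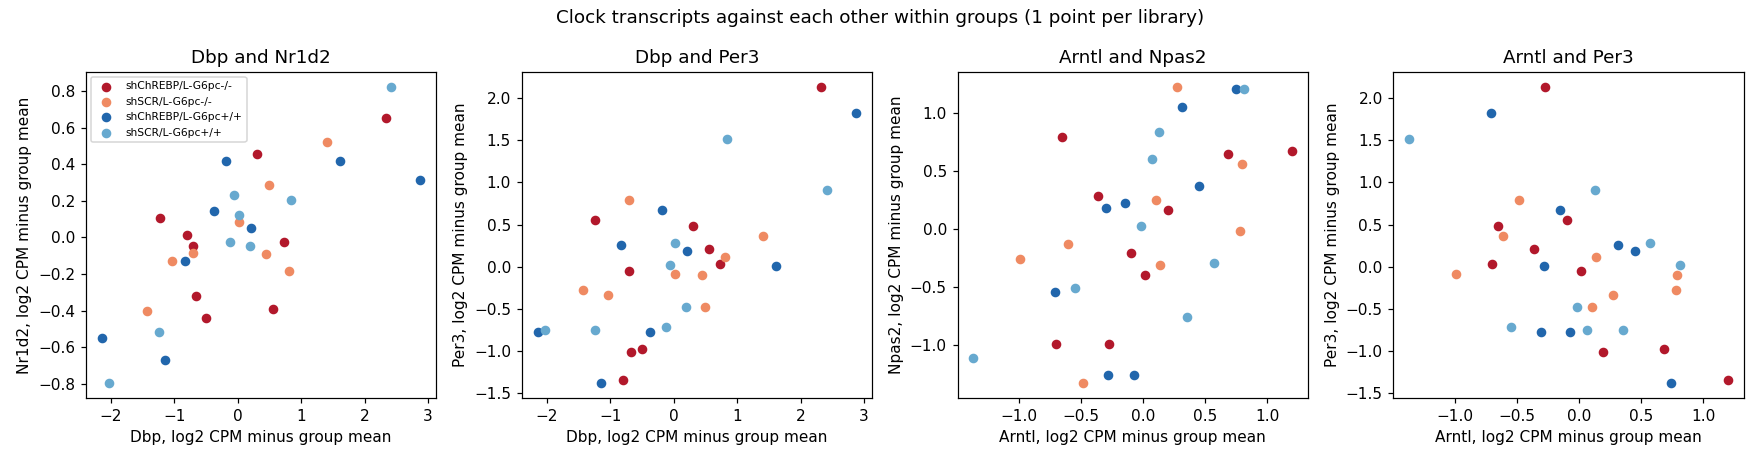
Each library as a point, with log2 CPM minus the group mean of Dbp against Nr1d2 and Per3 and of Arntl against Npas2 and Per3, coloured by group. Dbp rises with Nr1d2 (r = 0.76) and with Per3 (r = 0.68), and Arntl rises with Npas2 (r = 0.56) and falls with Per3 (r = -0.52).

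The libraries with the highest Dbp also stood together in the count table. Its columns run in 8 sets of 4 neighbours, each set with 1 library of every group (numbers 8 apart, such as s32, s24, s16 and s8), and s33 stands outside the sets. The labels give the sets no meaning. In the set of s32, s24, s16 and s8, Dbp was at 10.2, 39.1, 19 and 35 CPM, and in that of s28, s20, s12 and s4 at 32.7, 25.5, 46.9 and 6.81 CPM. The geometric means of these sets were 22.8 and 22.9 CPM, against 2.54 to 7.09 CPM in the other 6. Nr1d1 followed the same sets, with 28.2, 20.5, 37.6 and 34.5 CPM and 23.3, 23.2, 37.1 and 22.4 CPM, geometric means of 29.4 and 25.9 CPM against 8.5 to 18.9 CPM in the other 6.

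A term for the set was therefore added to the model, a choice made after the values had been seen, with 32 libraries and without s33. In edgeR the set passed the test for 8 of 10124 genes (0.079%), and 2 of these were clock genes, Dbp (adjusted p = 0.021) and Nr1d1 (adjusted p = 0.0231). The other 6 were Klf9 and Zbtb16, from the list of glucocorticoid-responsive genes, Cyp2d9, Vmp1, Snora30 and Snora47. The 7 remaining members tested had edgeR adjusted p-values between 0.391 and 0.69. With the term and without s33, Nr1d1 was lower in shChREBP/L-G6pc-/- than in shChREBP/L-G6pc+/+ livers (log2 fold change -0.82, edgeR adjusted p = 0.00346) and so was Clock (-0.27, adjusted p = 0.0457). Nr1d1 was highest of all libraries in s33 (39.8 CPM). In the model of groups alone, leaving out 1 library gave log2 fold changes of Nr1d1 between -0.8 and -0.45 in this comparison (lowest edgeR adjusted p = 0.0549). Leaving out s33 was among these fits, so without the term it gave no call of Nr1d1. Clock was not called in any of these fits either (lowest edgeR adjusted p = 0.0875). The term was not fitted with s33 kept, since s33 stands outside the sets. Clock passed more clearly against shSCR/L-G6pc+/+ livers, in shChREBP/L-G6pc-/- with -0.38 (edgeR adjusted p = 0.00482) and in shSCR/L-G6pc-/- with -0.40 (adjusted p = 0.00979). With group and set removed from the log2 values of 32 libraries, r between Dbp and Nr1d1 was -0.04, where it was 0.55 (p = 0.00169, adjusted p = 0.0101; rho = 0.64, p = 0.00023) with groups alone removed and 0.61 (permutation p = 0.00024) without s13 and s33. With both removed, r was 0.76 for Dbp and Nr1d2, 0.63 for Dbp and Per3, 0.66 for Nr1d2 and Per3, 0.43 for Per2 and Per3, 0.46 for Arntl and Npas2 and -0.52 for Arntl and Per3. For Clock it was -0.37 with Per2, -0.21 with Nr1d2 and -0.35 with Dbp, and for Cry1 -0.53 with Per3, -0.61 with Nr1d2 and -0.7 with Dbp. These values were not tested.

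**Figure D5:**
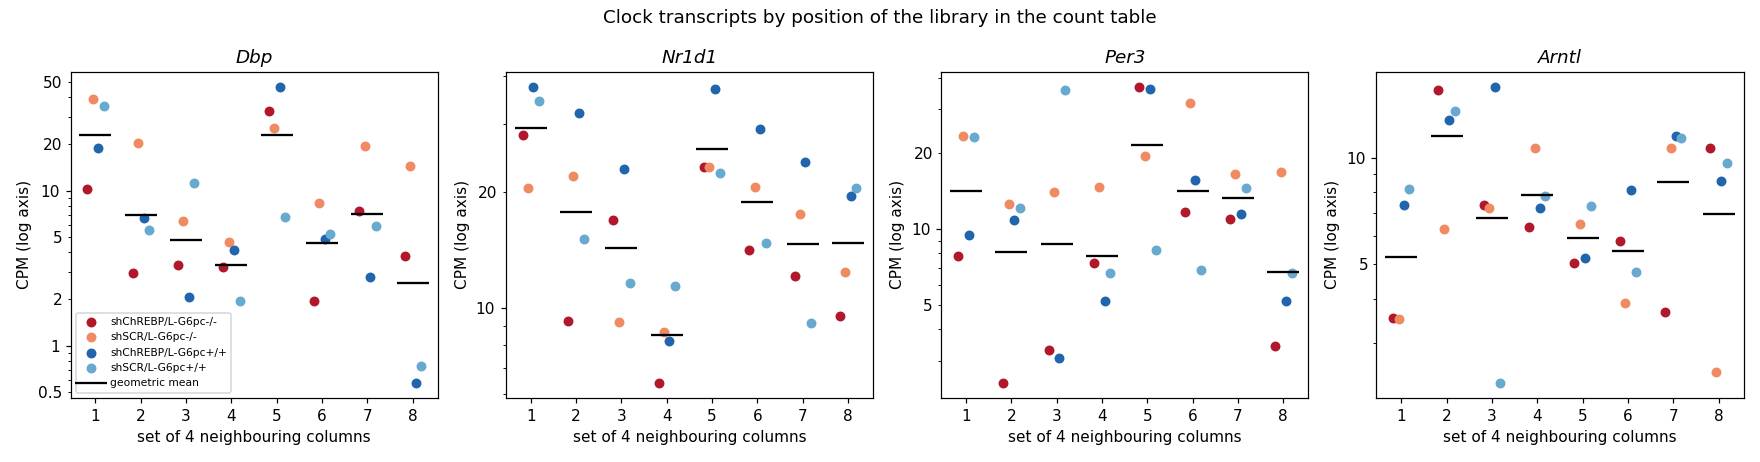
Dbp, Nr1d1, Per3 and Arntl in CPM on a log axis for the 8 sets of 4 neighbouring columns of the count table, with 1 point per group and a dash for the geometric mean. Sets 1 and 5 hold the highest means of Dbp (22.8 and 22.9 CPM) and Nr1d1 (29.4 and 25.9 CPM).

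Other regulators of the clock were taken from a list of 19 genes, of which 14 were tested. For shChREBP in L-G6pc-/- livers 3 fell and none rose, between shSCR/L-G6pc-/- and shSCR/L-G6pc+/+ livers 2 rose and none fell, and the median log2 fold changes were -0.06 and 0.07. Over all genes 7.56% and 3.23% were called in these comparisons. Tef and Hlf, relatives of Dbp that bind the same D-box, were among those that fell with shChREBP in L-G6pc-/- livers. Tef ran from 87.3 to 349 CPM (median 132) in shChREBP/L-G6pc-/-, 189 to 431 CPM (median 277) in shSCR/L-G6pc-/-, 104 to 374 CPM (median 143) in shChREBP/L-G6pc+/+ and 127 to 383 CPM (median 246) in shSCR/L-G6pc+/+ livers. The groups overlapped. The log2 fold change for shChREBP in L-G6pc-/- was -0.92 for Tef (SE 0.24, edgeR adjusted p = 0.0146) and -0.47 for Hlf (SE 0.12, edgeR adjusted p = 0.00872), and without the 4 libraries it was -0.66 (adjusted p = 0.321) and -0.38 (adjusted p = 0.19). Bhlhe41, a repressor at E-boxes with 6.3 ± 4.57 CPM in shSCR/L-G6pc-/- and 1.76 ± 1.95 CPM in shSCR/L-G6pc+/+ livers (SD, n = 8 each), rose by 1.82 (SE 0.50, edgeR adjusted p = 0.0311), a call lost in 8 of 33 cases of leaving out 1 library. Between the genotypes under shChREBP 1 gene of the list rose and 1 fell, for shChREBP in L-G6pc+/+ livers likewise 1 rose and 1 fell, and between shChREBP/L-G6pc-/- and shSCR/L-G6pc+/+ livers Tef and Hlf fell (over all genes 11%, 5.39% and 13.2% were called). The calls in L-G6pc+/+ livers were lost in 8 and 12 of 45 alternatives. Against shSCR/L-G6pc+/+ livers, that of Tef was lost in 19 of 45, of which 16 left out 1 library, and that of Hlf in 2 of 45.

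A list of 18 hepatic genes known to follow the clock, of which 17 were tested, held calls in both directions. Between shChREBP/L-G6pc-/- and shSCR/L-G6pc+/+ livers 3 rose and 4 fell (median log2 fold change -0.3), for shChREBP in L-G6pc-/- 2 rose and 1 fell (-0.22), and between shSCR/L-G6pc-/- and shSCR/L-G6pc+/+ livers 1 rose and 1 fell (-0.26). Over all genes 13.2%, 7.56% and 3.23% were called in these comparisons. Gys2, liver glycogen synthase, averaged 95.7 ± 14.4 CPM in shSCR/L-G6pc-/- and 44.1 ± 6.78 CPM in shSCR/L-G6pc+/+ livers (SD, n = 8 each; log2 fold change 1.12, SE 0.17, edgeR adjusted p = 4.32e-05). Avpr1a, a vasopressin receptor, averaged 34.3 ± 9.85 against 74.6 ± 23.3 CPM in the same groups (-1.12, SE 0.18, edgeR adjusted p = 0.000102). Cyp2c50, a cytochrome P450, averaged 86.2 ± 30.4 CPM in shChREBP/L-G6pc-/- and 205 ± 67.3 CPM in shSCR/L-G6pc-/- livers (SD, n = 9 and 8; -1.25, SE 0.21, edgeR adjusted p = 0.00017), and it was called without the 4 libraries too (-0.99, adjusted p = 0.0218). Neither of the 2 genes that rose in that comparison was called without the 4 libraries (edgeR adjusted p = 0.0868 and 0.104). Cyp2a5, another cytochrome P450, averaged 223 ± 118 CPM in shChREBP/L-G6pc-/- and 69.8 ± 25.4 CPM in shChREBP/L-G6pc+/+ livers (SD, n = 9 and 8; 1.67, SE 0.26, edgeR adjusted p = 3.32e-05). It was also the 1 gene of this list for which the shChREBP effects differed between the genotypes (1.78, SE 0.37, edgeR adjusted p = 0.0365), a call lost in 15 of 33 cases of leaving out 1 library. Between the genotypes under shChREBP 4 genes of the list rose and 3 fell, and for shChREBP in L-G6pc+/+ livers 1 fell (over all genes 11% and 5.39% were called).

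Since glucocorticoids and body temperature also drive clock transcripts, 10 genes known to respond to each were listed. Of the glucocorticoid-responsive genes 3 fell and none rose between shChREBP/L-G6pc-/- and shSCR/L-G6pc+/+ livers, 2 fell between the genotypes under shChREBP, and 1, Mt1, rose for shChREBP in L-G6pc-/- livers (over all genes 13.2%, 11% and 7.56% were called). Without the 4 libraries that stand apart, the log2 fold change of Mt1 was 1.02 (edgeR adjusted p = 0.211). Nr3c1, the glucocorticoid receptor, averaged 60.4 ± 7.79 CPM in shChREBP/L-G6pc-/- and 81.8 ± 7.88 CPM in shSCR/L-G6pc+/+ livers (SD, n = 9 and 8; -0.44, SE 0.09, edgeR adjusted p = 0.00128). Klf9 averaged 170 ± 41.9 against 281 ± 103 CPM in the same groups (-0.72, SE 0.19, edgeR adjusted p = 0.0103). Without the 4 libraries those of Nr3c1 and Klf9 were -0.30 (edgeR adjusted p = 0.12) and -0.53 (adjusted p = 0.256). No gene of this list was called in shSCR/L-G6pc-/- against shSCR/L-G6pc+/+ livers (median log2 fold change -0.48) or for shChREBP in L-G6pc+/+ livers (-0.06). Of the temperature-responsive genes, 1 of 10 was called in any of the 6 tests, Hsp90aa1 in shChREBP/L-G6pc-/- against shSCR/L-G6pc+/+ livers (0.57, edgeR adjusted p = 0.0293), and not without the 4 libraries (0.40, adjusted p = 0.363).

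The genes whose levels within groups were most like those of Arntl over the 33 libraries, among 8936 genes with a mean of at least 5 CPM, were Pnrc1 (r = 0.71), Elovl3 (0.69), Ypel2 (0.68), Magi1 (0.66) and Dapk1 (0.65). Elovl3, a fatty acid elongase, is also on the list of clock outputs. The most opposite were Cggbp1 (r = -0.6), Slc19a1 (-0.59), Pdhb (-0.58), Sh2d3c (-0.57) and Nudt4 (-0.57). Per3 stood at place 18 from the opposite end, Dbp at place 132 and Nr1d2 at place 248. Ranked by likeness to Dbp instead, a choice made after the values had been seen, Tef was at place 1 (r = 0.82), Nr1d2 at place 2 (0.76) and Per3 at place 5 (0.68). These ranks describe the 33 libraries, which share depth and scaling, and carry no test.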

How the data were processed

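Liver RNA was sequenced from 3' QuantSeq libraries. The authors used HISAT for alignment to GRCm38 (Ensembl release 82), SAMtools for sorting and HTSeq for counting (versions and strand setting not given in the sources used here), and the deposited table holds raw counts. The deposited normalized table, made by the authors with voom of limma, holds a linear signal, the count plus 0.5 over 1 library-specific factor, so its log2 was taken. The lists of members and other genes, the tests and the alternatives were chosen with earlier results of these data known.

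Counts were analysed with R 4.3.3 and edgeR 4.0.16 (limma 3.58.1 and DESeq2 1.42.0 as alternatives). filterByExpr (minimum count 10, minimum total 15) kept 10179 genes, TMM scaling was applied and a quasi-likelihood model was fitted to all 4 groups. Tests were two-sided with Benjamini-Hochberg adjustment over all genes tested and a threshold of 0.05. GENCODE M21 named 25817 of 25988 identifiers. Log2 CPM used a prior count of 2, and correlations were permuted 100000 times within groups. Total counts per library, 1497843 to 3546852, limit the precision of low genes. Named genes were all members, Mlxipl, Pklr and G6pc, up to 4 genes of each list by smallest p, and the 5 most and 5 least like Arntl. Code was tested on simulated data. Alternatives were other scalings, filters, tests and libraries left out. The values of 1 gene of the list of other clock regulators are not reported here.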

Additional observations from a re-analysis of the deposited data

Results flagged for a closer look

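In 6 of the 40 combinations of a clock gene and a group, 1 library lay farther from its neighbour than Dixon's criterion allows. For normally distributed values chance gives about 1 such case in 20. The criterion was applied to CPM, whose distribution was not tested, so this rate may not hold here. All 6 were high values. Dbp reached 32.7 CPM in the shChREBP/L-G6pc-/- library s28 (next highest 10.2 CPM), 46.9 CPM in the shChREBP/L-G6pc+/+ library s12 (next 19 CPM) and 35.0 CPM in the shSCR/L-G6pc+/+ library s8 (next 11.2 CPM). Per3 was high in the same libraries s28 (36.8 CPM, next 11.7 CPM) and s12 (35.9 CPM, next 15.7 CPM). Per1 was at 44.9 CPM in the shChREBP/L-G6pc-/- library s31 (next 23.9 CPM).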

How the results depend on the processing

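No paired analysis by library number was possible because the numbers are not shared between the groups, and the labels pair no libraries. The sets of neighbouring columns were fitted as a block instead, a choice made after the data had been seen. Clock genes called between shSCR/L-G6pc-/- and shSCR/L-G6pc+/+ livers numbered 0 without the filter and with the compared groups alone, and 0 to 1 with 1 library left out. Between shChREBP/L-G6pc-/- and shSCR/L-G6pc+/+ livers they numbered 0 with library size only, without the filter and without s29, s30, s32 and s33, and 0 to 1 with 1 library left out. For shChREBP in L-G6pc-/- livers there was 1 with library size only and with DESeq2, and 0 to 2 with 1 library left out. Between the genotypes under shChREBP there were 2 with the column set as a term and without s33. The relations with Arntl that passed numbered 0 in each group alone and 1 to 4 with 1 library left out. With the deposited values, where Npas2 has no row, 1 of 8 passed, that of Per3. No member's called log2 fold change changed sign in any alternative. Over all genes, calls without the 4 libraries numbered 106 for shChREBP in L-G6pc-/- (770 with them) and 321 for shChREBP/L-G6pc-/- against shSCR/L-G6pc+/+ livers (1347 with them). Calls for shChREBP in L-G6pc+/+ ran from 316 to 626 with 1 library left out, and those for the difference of the shChREBP effects from 0 to 73 over all alternatives. Library size alone moved the median log2 fold change of all genes for shChREBP in L-G6pc-/- to 0.11. The cause of these differences was not tested. Without the filter Npas2 could be tested, and its lowest edgeR adjusted p was 0.341. Members with a median under 20 reads in a group, such as Arntl, Dbp and Cry1, are limited by depth.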
